A study of Mus musculus with 40 samples.

Results

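The genes described here are 35 named genes of salt and water handling in the distal nephron, listed by name for their roles, with earlier results of these data known, out of 55359 gene identifiers in the count tables. They cover the thick ascending limb (10 genes), the distal convoluted tubule (4), the WNK-SPAK kinase pathway (5), the basolateral potassium and chloride channels (3), the epithelial sodium channel ENaC with the aldosterone response (7) and principal cell water handling (6). All 35 matched 1 identifier each, and 33 of them were among the 17345 genes with enough counts to be tested. The 2 others, Cldn14 and Avpr2, were too low.

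Kidney RNA was sequenced from male C57BL/6 mice given the dioxin TCDD (2,3,7,8-tetrachlorodibenzo-p-dioxin), a ligand of the aryl hydrocarbon receptor, in sesame oil. Groups of 5 mice received 0.03, 0.1, 0.3, 1, 3, 10 or 30 µg/kg at each gavage, and a vehicle group of 5 received sesame oil alone. Unless stated otherwise, the p-values of single genes against vehicle rest on the spread between libraries within groups, estimated over all 8 groups of 5 together. Every mouse, vehicle included, was gavaged every 4 days for 28 days from 30 days of age, with 7 gavages of 0.1 mL in all, and was killed at 58 days of age. About 100 mg of the frozen right kidney was extracted per library, so each library is a piece of kidney and not the whole organ.

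After the proximal tubule has taken back most of the filtered salt, the thick ascending limb reabsorbs sodium, potassium and chloride together and leaves water behind, which keeps the medulla concentrated. The distal convoluted tubule then takes up sodium and chloride through the thiazide-sensitive cotransporter, whose activity is set by the WNK and SPAK kinases, and the principal cells of the connecting tubule and collecting duct take up sodium through ENaC under aldosterone and water through aquaporins under vasopressin. Calcium and magnesium are adjusted in the same segments.

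The 5 genes Pvalb, Wnk1, Scnn1b, Scnn1g and Aqp3 were lower at both 10 and 30 µg/kg, and the bases before their starts are printed here because TCDD acts through a receptor that binds DNA holding the letters GCGTG. The sequences are from RefSeq on build GRCm38.p6, run 5′ to 3′ on the gene's strand up to the base before the annotated start, and cover 250 bases, except for Wnk1, where the last bases before the start lie in an annotated exon and are left out. The count tables hold no coordinates. Capitals mark GCGTG or its reverse complement CACGC. Pvalb has a pair of annotated starts on chromosome 15, minus strand, with the windows chr15:78206401-78206650 and chr15:78204238-78204487. The others are Wnk1 at chr6:120038673-120038905 (minus strand, 233 bases), Scnn1b at chr7:121864788-121865037 (plus strand), Scnn1g at chr7:121734229-121734478 (plus strand) and Aqp3 at chr4:41098184-41098433 (minus strand).
Pvalb, outer start: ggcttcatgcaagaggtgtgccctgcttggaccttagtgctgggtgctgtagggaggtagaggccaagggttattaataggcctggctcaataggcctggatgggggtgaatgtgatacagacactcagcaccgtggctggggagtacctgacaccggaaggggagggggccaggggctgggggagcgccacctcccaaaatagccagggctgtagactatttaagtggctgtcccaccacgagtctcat
Pvalb, inner start: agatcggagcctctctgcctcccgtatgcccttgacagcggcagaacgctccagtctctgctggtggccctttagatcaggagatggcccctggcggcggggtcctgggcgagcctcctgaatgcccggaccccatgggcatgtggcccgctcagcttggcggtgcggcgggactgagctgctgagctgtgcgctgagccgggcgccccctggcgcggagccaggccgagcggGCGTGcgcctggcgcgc
Wnk1: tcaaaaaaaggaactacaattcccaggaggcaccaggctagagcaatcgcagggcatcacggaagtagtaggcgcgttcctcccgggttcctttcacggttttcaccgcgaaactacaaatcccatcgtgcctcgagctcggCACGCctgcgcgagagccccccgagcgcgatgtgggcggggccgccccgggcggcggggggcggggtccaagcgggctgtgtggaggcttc
Scnn1b: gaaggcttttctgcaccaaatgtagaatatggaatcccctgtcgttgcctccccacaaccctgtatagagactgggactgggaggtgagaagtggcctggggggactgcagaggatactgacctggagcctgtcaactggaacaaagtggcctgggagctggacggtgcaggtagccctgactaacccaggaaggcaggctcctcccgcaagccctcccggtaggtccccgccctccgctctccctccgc
Scnn1g: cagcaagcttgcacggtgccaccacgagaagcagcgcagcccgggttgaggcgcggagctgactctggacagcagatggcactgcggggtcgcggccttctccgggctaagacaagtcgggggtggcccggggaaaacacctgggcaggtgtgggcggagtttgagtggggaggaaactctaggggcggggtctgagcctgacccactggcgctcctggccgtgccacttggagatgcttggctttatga
Aqp3: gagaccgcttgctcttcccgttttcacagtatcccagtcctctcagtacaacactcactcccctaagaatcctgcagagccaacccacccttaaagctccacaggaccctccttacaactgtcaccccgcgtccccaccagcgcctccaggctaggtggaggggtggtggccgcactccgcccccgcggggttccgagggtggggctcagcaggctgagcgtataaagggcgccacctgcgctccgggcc
The letters GCGTG were found on either strand once before the inner Pvalb start, beginning 17 bases before it, and once before Wnk1, beginning 108 bases before the start. They were not in the windows of Scnn1b, Scnn1g and Aqp3. Of all 32851 RefSeq promoter entries of the mouse, 28.2% held these letters in the 250 bases before the start. Of the 30 genes of the set that matched an entry, 15 held them before at least 1 of their starts, against 30.9% of all 27025 genes, and 2 of the 5 printed genes did. A match is a stretch of letters, not a bound site. No entry matched Bsnd, Scnn1a, Hsd11b2, Nedd4l or Aqp4.

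Gene counts ranged from 15278423 to 25575317 per library. Of the genes tested, 663 were higher and 173 lower at 10 µg/kg, and 1456 higher and 1310 lower at 30 µg/kg, by edgeR's quasi-likelihood test at an adjusted p under 0.05. A set of 4 libraries stood apart in a score of medulla and thin limb markers minus proximal tubule markers, a log2 difference that uses none of the 35 genes. Vehicle replicates 1 and 2 had scores of -4.67 and -4.68 and replicates 2 and 3 at 30 µg/kg had -5.09 and -5.56, whereas the next lowest library was at -3.97. Results are therefore given with and without these 4 libraries where they differ. Of the 8 proximal tubule S1-S2 markers in the score, 3 were called higher and 3 lower at 30 µg/kg (8.39% and 7.55% of all genes). At 10 µg/kg 1 was called lower (0.997% of all genes). None of the 7 medulla and thin limb markers was called at these doses. The score thus holds genes that differed with dose, and the part of dose in it was not tested. In these bulk data, fewer cells of a type and less RNA per cell cannot be told apart. All 7 dose comparisons share the same 5 vehicle libraries.

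In vehicle kidney the most abundant of the 35 genes per exon length were Aqp2, the vasopressin-regulated water channel, at 352 ± 66.0 CPM (counts scaled to library size) per kilobase of exon (SD, n = 5), and Umod, which encodes the urinary protein uromodulin, at 349 ± 136. These overlapped. Next came Hsd11b2 at 157 ± 19.2, the enzyme that inactivates glucocorticoids in aldosterone-sensitive cells, Kcnj16 at 155 ± 14.4 and the thiazide-sensitive cotransporter Slc12a3 at 136 ± 25.3 CPM per kilobase. Of the 3 ENaC subunits, Scnn1a was at 41.0 ± 5.77, Scnn1b at 26.3 ± 1.55 and Scnn1g at 21.1 ± 1.26 CPM per kilobase, and the 5 libraries of each of these subunits did not overlap with those of the next. The lowest of the tested genes was Nr3c2, the mineralocorticoid receptor, at 3.11 ± 0.269. Cldn14 was at 0 counts in 16 of 40 libraries and reached at most 13 counts, and Avpr2, the vasopressin V2 receptor, was at 0 in 10 and reached at most 12. A count of 0 allows 3 counts, which were worth 0.117 to 0.196 CPM across libraries. Avpr2 also shares 81.3% of its exonic bases with Arhgap4, so reads there may have been left uncounted as ambiguous.

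**Figure D1:**
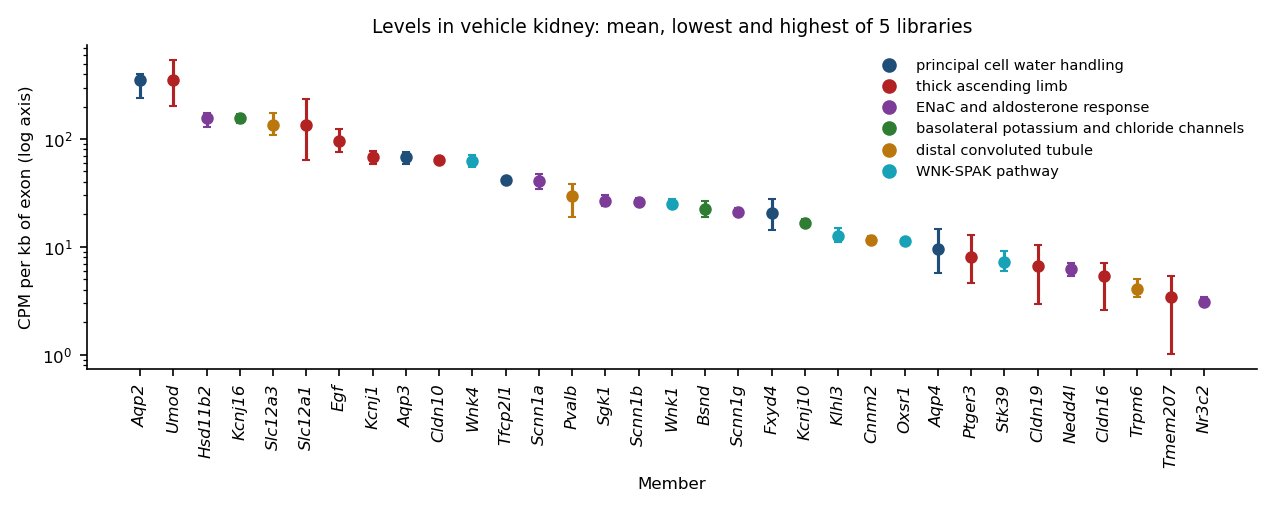
Levels of the 33 tested genes in vehicle kidney, in CPM per kilobase of exon on a log axis, with genes ordered by mean. Points are means, bars run from the lowest to the highest of 5 libraries and colours mark the role; Aqp2 (352) and Umod (349) lead, and the thick limb genes Slc12a1, Cldn19, Cldn16 and Tmem207 have long bars.

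The thick ascending limb genes varied widely among vehicle mice. The main edgeR fit, on all 40 libraries with no covariate, called none of the 9 tested at any single dose. Umod was at 556, 690, 912, 1176 and 1485 CPM in the 5 vehicle libraries, at 631, 1274, 1424, 918 and 1368 CPM at 10 µg/kg, and at 782, 720, 759, 1112 and 1369 CPM at 30 µg/kg. The 3 groups overlapped throughout, and the lowest vehicle values were those of replicates 1 and 2, which stood apart in the medulla score. The log2 change (log2 of the fold change against vehicle, from the fitted model) of Umod at 30 µg/kg was -0.02 ± 0.24 (SE; edgeR adjusted p = 0.968), and -0.13 ± 0.27 without the 4 libraries. Slc12a1, the furosemide-sensitive sodium-potassium-chloride cotransporter of this segment, was at 369, 380, 844, 895 and 1361 CPM in vehicle and at 1206, 759, 506, 972 and 1291 CPM at 30 µg/kg. Its low values were vehicle replicates 1 and 2 and replicate 3 at 30 µg/kg, and its log2 change there was 0.30 ± 0.27 (edgeR adjusted p = 0.520).

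The same vehicle libraries were lowest for the tight junction protein Cldn19, at 12.5 and 17.8 CPM against 29.5 to 43.7 CPM in the other 3, and for Tmem207, at 2.71 and 3.75 CPM against 10.7 to 14.6 CPM. At 0.03 µg/kg, where no library stood apart, Cldn19 ran from 35.5 to 46.2 CPM and Tmem207 from 15.5 to 16.6 CPM, so all 5 Tmem207 values lay above all vehicle values (edgeR adjusted p = 0.848; 0.386% of all genes had every library above vehicle at this dose). Cldn10, a claudin that forms paracellular pores, varied less, with 156 to 177 CPM in vehicle. All 5 of its libraries at 10 µg/kg, from 178 to 204 CPM, were above vehicle, but the log2 difference of 0.17 ± 0.07 did not pass (edgeR adjusted p = 0.167; 4.32% of all genes had every library above vehicle). Cldn16, a claudin of the magnesium pathway, had a log2 difference of 0.28 ± 0.20 at 30 µg/kg (edgeR adjusted p = 0.392). The prostaglandin receptor Ptger3 had 0.41 ± 0.25 (edgeR adjusted p = 0.295), and with the medulla score as a term it was called higher, at 0.56 ± 0.18 (edgeR adjusted p = 0.0282).

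A pair of thick limb genes was called in the trend over the 8 dose ranks, where 8.84% of all genes were called lower and 11% higher. Egf, the precursor of epidermal growth factor, was at 852, 986, 1026, 1105 and 1394 CPM in vehicle and at 728, 830, 663, 935 and 993 CPM at 30 µg/kg. Of the 5 libraries at 30 µg/kg, 3 lay below all vehicle libraries, and the log2 slope was -0.06 ± 0.02 per dose step (edgeR adjusted p = 0.00632). It was not called in the trend without the 30 µg/kg group (edgeR adjusted p = 0.265). The log2 change of Egf at 30 µg/kg was -0.37 ± 0.14, close to the threshold (edgeR adjusted p = 0.0633). At that dose Egf was called lower by DESeq2 and with the run of title numbers as a term. It was also called lower there without vehicle replicate 1 or without replicate 5 at 30 µg/kg. Kcnj1, the apical potassium channel ROMK, fell by 0.04 ± 0.01 per dose step on the log2 scale (edgeR adjusted p = 0.00268), with means of 227 ± 24.5 CPM in vehicle, 256 ± 16.7 at 0.03 µg/kg, 213 ± 14.6 at 10 µg/kg and 203 ± 31.5 at 30 µg/kg (SD, n = 5). Its mean at 0.1 µg/kg was 255 ± 26.7 CPM, so the 2 highest means were at the lowest doses and not in vehicle.

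**Figure D2:**
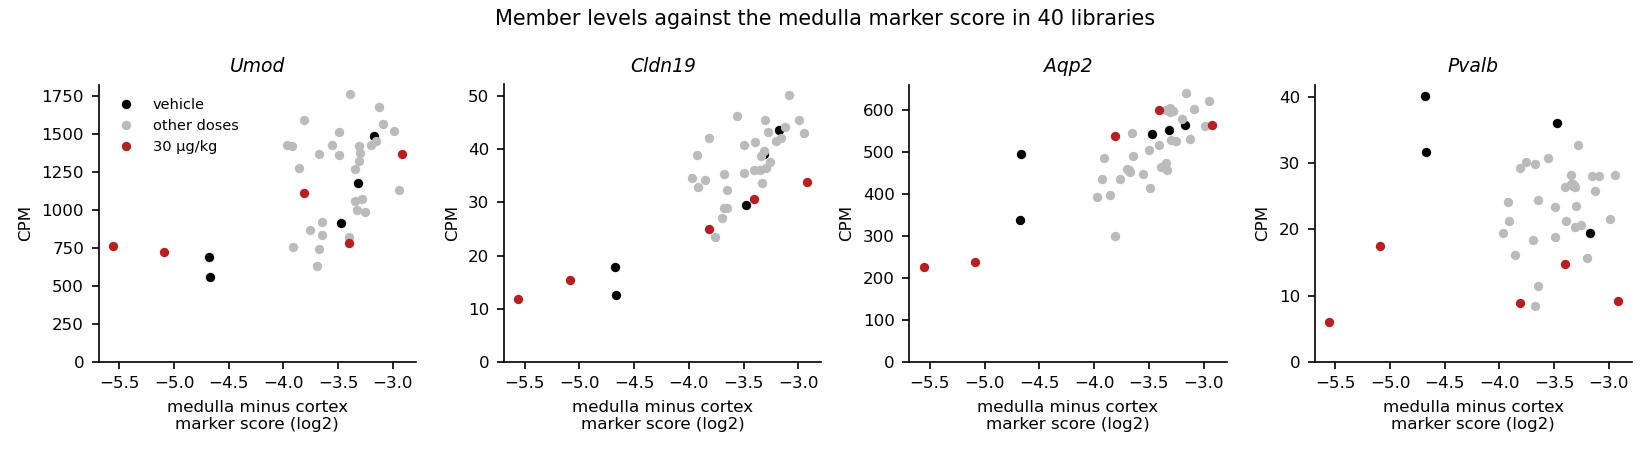
Level in CPM of 4 genes against the score of medulla and thin limb markers minus proximal tubule markers (log2), 1 point per library, with vehicle in black, 30 µg/kg in red and other doses in grey. The 4 libraries that stand apart lie at scores from -5.56 to -4.67, with Umod at 759 CPM or less and Cldn19 at 17.8 CPM or less; Pvalb at 30 µg/kg is below all vehicle values in these and in the other libraries.

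Over the 36 other libraries, 4 of the 33 genes were related to the medulla score at a Benjamini-Hochberg adjusted p under 0.05 by both measures (100000 permutations, 33 relations). The permutations ran over the libraries of all doses together. A difference with dose that a gene and the score share is therefore counted in its relation, and relations within a dose were not tested. Aqp2 had Pearson's r = 0.70 (permutation p = 1e-05, the smallest these permutations can give, adjusted 0.00033) and Spearman's rho = 0.75 (permutation p = 1e-05), and r = 0.67 without the 2 farthest libraries. Aqp3, a basolateral water channel of the same cells, had r = 0.64 (permutation p = 4e-05, adjusted 0.00066) and rho = 0.67 (permutation p = 3e-05), and again r = 0.64 without the 2 farthest. Bsnd, the barttin subunit of the chloride channels, and Cldn19 had r = 0.59 and 0.55, rho = 0.59 for both, and adjusted permutation p values of 0.0011 and 0.00404 for r and 0.00181 for rho. Without the 2 farthest libraries their r was 0.56 and 0.61. The samples' titles are numbers in a first run of doses up to 27 and a second from 28 on. Within these runs (19 and 17 libraries), r was 0.76 and 0.45 for Aqp2, 0.63 and 0.60 for Aqp3, 0.59 and 0.40 for Bsnd, and 0.41 and 0.64 for Cldn19. The 4 distal convoluted tubule genes did not pass, with r between -0.06 (Trpm6) and 0.14 (Slc12a3).

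None of the 33 genes was called at 0.03, 0.1, 0.3, 1 or 3 µg/kg by edgeR, where 0%, 0%, 0.00577%, 0.513% and 1.09% of all genes were called. At an unadjusted p under 0.05 they numbered 7, 6, 1, 5 and 7 in that order, or 21.2%, 18.2%, 3.03%, 15.2% and 21.2% of the 33, beside 5.67%, 5.53%, 5.23%, 7.1% and 8.95% of all genes. Of these, 5, 6, 1, 1 and 2 were higher and 2, 0, 0, 4 and 5 lower. Those higher at 0.03 and 0.1 µg/kg were all thick limb genes. Among them, Umod, Cldn19 and Tmem207 appeared at both doses and were lowest in vehicle replicates 1 and 2, which every dose comparison shares. By DESeq2, Scnn1g was called lower at 1 µg/kg and Scnn1b at 3 µg/kg. At 10 µg/kg edgeR called 6 of the 33 lower and none higher (0.997% and 3.82% of all genes). At 30 µg/kg it called 7 lower and 2 higher (7.55% and 8.39% of all genes), and in the trend 11 lower and none higher. These dose calls use a spread estimated over all 8 groups. With only the 10 libraries of vehicle and 30 µg/kg fitted, Pvalb alone was called at 30 µg/kg. Calls over all genes also fell in that fit, from 1456 higher and 1310 lower to 631 and 338. Without the 4 libraries of low medulla score, 510 of all genes were called higher and 158 lower at 10 µg/kg. At 30 µg/kg they numbered 1068 and 1130, and in the trend 1676 and 1431. Of the 33 genes, calls without these 4 libraries numbered 5 at 10 µg/kg, 4 at 30 µg/kg and 11 in the trend. Of the 5 at 10 µg/kg, 3 were called with all libraries too. Slc12a3, Wnk1 and Scnn1g were lost there, and Bsnd and Scnn1a gained. All 4 at 30 µg/kg were also called with all libraries, and in the trend 10 were, with Wnk4 lost and Cldn19 gained. The median log2 change of the 33 was -0.10 at 10 µg/kg and -0.12 at 30 µg/kg, beside -0.01 and 0.01 over all genes. By role, 2 of 4 distal convoluted tubule genes and 1 of 5 principal cell genes were called lower at 30 µg/kg. In the WNK-SPAK pathway 1 of 5 was lower (Wnk1) and 1 higher (Klhl3). Of the ENaC and aldosterone response genes, 3 of 7 were lower and 1 higher (Sgk1). None of the thick limb or basolateral channel genes was called. The shares of all genes beside these are the same 7.55% lower and 8.39% higher.

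**Figure D3:**
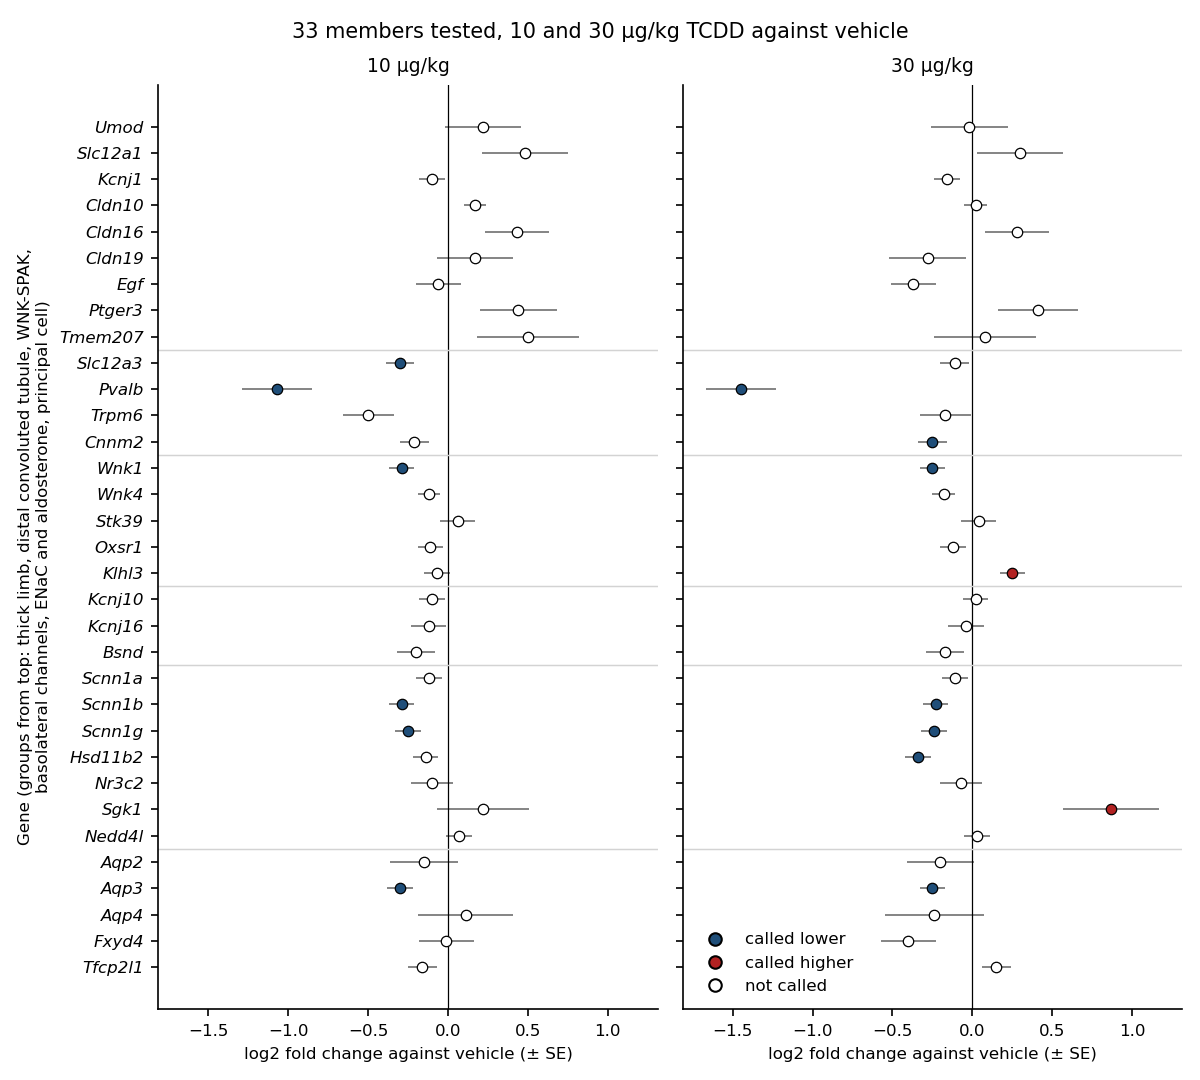
Log2 change against vehicle with its SE for the 33 tested genes at 10 and 30 µg/kg, grouped by role. Filled points passed edgeR's test at an adjusted p under 0.05; Pvalb stands farthest left at both doses (-1.07 and -1.45), and Sgk1 farthest right at 30 µg/kg (0.87).

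Parvalbumin (Pvalb), a calcium-binding protein of the early distal convoluted tubule, fell most. It was at 31.7, 40.2, 36.1, 26.6 and 19.5 CPM in vehicle, at 18.4, 16.2, 19.4, 11.5 and 8.45 CPM at 10 µg/kg, and at 14.8, 17.5, 6.03, 8.81 and 9.21 CPM at 30 µg/kg. All 5 libraries at each of these doses lay below all vehicle libraries, as did 1.82% of all genes at 10 µg/kg and 2.83% at 30 µg/kg. The log2 change was -1.07 ± 0.22 at 10 µg/kg (edgeR adjusted p = 0.00121) and -1.45 ± 0.22 at 30 µg/kg (adjusted p = 1.27e-05). Group means at the doses between were 25.6 ± 3.48, 27.0 ± 3.28, 28.7 ± 3.59, 23.8 ± 3.96 and 21.6 ± 4.12 CPM from 0.03 to 3 µg/kg (SD, n = 5), and these groups overlapped with vehicle. The 3 vehicle libraries of the first run of title numbers were at 31.7 to 40.2 CPM and the 2 of the second run at 19.5 to 26.6 CPM. Within these runs the log2 difference at 30 µg/kg was -1.58 and -1.29. Without the 4 libraries of low medulla score it was -1.34 ± 0.25 (edgeR adjusted p = 0.00029). In the trend Pvalb fell by 0.18 ± 0.03 per dose step on the log2 scale (edgeR adjusted p = 7.9e-06). That trend call held in 40 of 40 fits that left out 1 library.

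Its neighbours in the segment moved less. Slc12a3 was at 1655, 1930, 1374, 1226 and 1368 CPM in vehicle, at 1173, 1275, 1239, 1130 and 1315 CPM at 10 µg/kg and at 1182, 1477, 1590, 1397 and 1353 CPM at 30 µg/kg. It was called at 10 µg/kg only, with a log2 change of -0.30 ± 0.09 (edgeR adjusted p = 0.0370) against -0.11 ± 0.09 at 30 µg/kg (adjusted p = 0.461). The 2 highest vehicle values are those of replicates 1 and 2, and without the 4 libraries the call at 10 µg/kg was lost, at -0.11 ± 0.08 (edgeR adjusted p = 0.608). It was also lost without vehicle replicate 1 or 2 or any of replicates 1 to 4 at 10 µg/kg, with log2 values from -0.37 to -0.20 over the 10 fits that left out 1 library. Cnnm2, a basolateral magnesium-handling protein, was at 58.9, 64.8, 59.2, 57.1 and 60.6 CPM in vehicle. At 30 µg/kg it was at 53.2, 55.0, 51.4, 49.2 and 43.8 CPM, with every library below vehicle (2.83% of all genes). Its log2 change was -0.25 ± 0.09 (edgeR adjusted p = 0.0455), and -0.28 ± 0.12 without the 4 libraries (adjusted p = 0.120). The call held in 3 of 10 fits that left out 1 library (-0.28 to -0.20). It was lost without vehicle replicate 1, 2, 3 or 5 or replicate 3, 4 or 5 at 30 µg/kg. In the trend Cnnm2 fell by 0.04 ± 0.01 per dose step on the log2 scale (edgeR adjusted p = 0.00273). That trend call held in 40 of 40 fits that left out 1 library. Trpm6, the apical magnesium channel, was at 22.1 ± 6.48 CPM at 10 µg/kg against 31.3 ± 4.68 CPM in vehicle (SD, n = 5), a log2 difference of -0.50 ± 0.16 that was not called (edgeR adjusted p = 0.0674; called at 0.049 with the medulla score as a term), and at 27.8 ± 5.85 CPM at 30 µg/kg.

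Pvalb and Slc12a3 mark overlapping stretches of 1 tubule, and their ratio within each library sets one against the other. This pair was chosen after its values were seen, so the ratio is given as a description. The log2 ratio of Pvalb to Slc12a3 counts ran from -6.13 to -5.25 in vehicle and from -8.04 to -6.32 at 30 µg/kg, so the 5 libraries at 30 µg/kg lay below all vehicle libraries. The mean difference was -1.42, and at 10 µg/kg it was -0.80, with 3 of 5 libraries below vehicle.

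Of the kinases that control the thiazide-sensitive cotransporter, Wnk1 was lower at both high doses. It was at 581, 633, 548, 524 and 554 CPM in vehicle, at 487, 504, 477, 383 and 476 CPM at 10 µg/kg and at 444, 551, 514, 449 and 436 CPM at 30 µg/kg. All 5 libraries at 10 µg/kg (1.82% of all genes) and 4 of the 5 at 30 µg/kg lay below vehicle. The log2 changes were -0.29 ± 0.08 (edgeR adjusted p = 0.0315) and -0.25 ± 0.08 (adjusted p = 0.0353). Without the 4 libraries they were -0.22 ± 0.09 (adjusted p = 0.191) and -0.29 ± 0.10 (adjusted p = 0.0453). Leaving out 1 library gave -0.32 to -0.23 at 10 µg/kg, with the call lost without vehicle replicate 1 or 2 or replicate 4 or 5 of that dose. At 30 µg/kg it gave -0.30 to -0.20, with the call lost without vehicle replicate 1 or 2 or replicate 1, 4 or 5. In the trend Wnk1 fell by 0.03 ± 0.01 per dose step on the log2 scale (edgeR adjusted p = 0.00692). That trend call held in 40 of 40 fits that left out 1 library. Wnk1 makes a long kinase in many tissues and a short form without kinase activity in the distal convoluted tubule, and counts per gene do not separate them.

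Klhl3, the adaptor through which the CUL3 ubiquitin ligase degrades WNK kinases, was higher at 30 µg/kg. It was at 97.8, 110, 88.5, 80.5 and 84.8 CPM in vehicle and at 92.4, 107, 118, 121 and 111 CPM at 30 µg/kg, with 3 of 5 libraries above vehicle. The log2 change was 0.25 ± 0.08 (edgeR adjusted p = 0.0301), and 0.35 ± 0.10 without the 4 libraries (adjusted p = 0.0123). Leaving out 1 library gave 0.20 to 0.32, and the call was lost without vehicle replicate 3, 4 or 5 or replicate 3, 4 or 5 at 30 µg/kg. The log2 difference was 0.09 in the first run of title numbers and 0.48 in the second. Wnk4 was called lower in the trend alone, at -0.03 ± 0.01 per dose step on the log2 scale (edgeR adjusted p = 0.0238), and the mean was 257 ± 24.7 CPM in vehicle against 227 ± 29.2 CPM at 30 µg/kg (SD, n = 5). That call was lost with the medulla score as a term, without the 4 libraries, without the 30 µg/kg group, or without replicate 2 or 3 at that dose (highest edgeR adjusted p in these 2 fits 0.0625). The downstream kinases Stk39 (SPAK) and Oxsr1 had log2 changes of 0.04 ± 0.11 and -0.12 ± 0.08 at 30 µg/kg and were not called (edgeR adjusted p = 0.852 and 0.377). At 0.03 µg/kg all 5 Oxsr1 libraries lay below vehicle (0.438% of all genes did), with a log2 difference of -0.16 ± 0.08 (edgeR adjusted p = 0.875).

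The basolateral channel genes Kcnj10, Kcnj16 and Bsnd, which set the membrane voltage and let chloride leave the cell, were not called in any comparison. Kcnj16 was at 674, 664, 603, 555 and 558 CPM in vehicle and at 547, 715, 838, 476 and 406 CPM at 30 µg/kg, with its highest values in the libraries of low medulla score. Bsnd went the other way, with 45.1 and 34.2 CPM in replicates 2 and 3 at 30 µg/kg against 62.5 to 68.6 CPM in the other 3. Without the 4 libraries Bsnd was called lower at 10 µg/kg, with a log2 change of -0.35 ± 0.10 (edgeR adjusted p = 0.0261) in place of -0.20 ± 0.12 (adjusted p = 0.449).

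Of the 3 ENaC subunits, 2 were called lower at 10 and 30 µg/kg. Scnn1b, the beta subunit, was at 64.8, 72.6, 68.8, 65.9 and 74.1 CPM in vehicle, at 62.1, 50.6, 64.1, 61.0 and 59.1 CPM at 1 µg/kg and at 63.6, 54.0, 47.1, 63.5 and 59.3 CPM at 3 µg/kg. At 10 µg/kg it was at 63.4, 57.0, 55.1, 52.8 and 54.7 CPM and at 30 µg/kg at 53.4, 50.9, 62.4, 66.6 and 60.9 CPM. No library at 1, 3 or 10 µg/kg reached the lowest vehicle value (0.548%, 0.68% and 1.82% of all genes had every library below vehicle), and 4 of 5 at 30 µg/kg stayed below it. The log2 change was -0.22 ± 0.08 at 1 µg/kg (edgeR adjusted p = 0.332), -0.27 ± 0.08 at 3 µg/kg (0.0736), -0.29 ± 0.08 at 10 µg/kg (0.0127) and -0.23 ± 0.08 at 30 µg/kg (0.0268). The last became -0.21 ± 0.10 without the 4 libraries (adjusted p = 0.169). Leaving out 1 library gave -0.34 to -0.27 at 10 µg/kg, with the call lost without replicate 4 (adjusted p = 0.051), and -0.28 to -0.19 at 30 µg/kg, lost without vehicle replicate 2 or 5 or replicate 1 or 2.

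Scnn1g, the gamma subunit, was at 62.3, 63.7, 61.9, 58.7 and 69.0 CPM in vehicle, at 54.2, 52.0, 52.6, 48.2 and 51.5 CPM at 1 µg/kg, at 54.1, 52.9, 54.6, 51.6 and 52.5 CPM at 10 µg/kg and at 51.1, 47.7, 47.9, 58.7 and 61.3 CPM at 30 µg/kg. It too lay below every vehicle library at 1 and 10 µg/kg, and in 4 of 5 libraries at 30 µg/kg. Its log2 change was -0.29 ± 0.08 at 1 µg/kg (edgeR adjusted p = 0.0853), -0.25 ± 0.08 at 10 µg/kg (0.0487) and -0.24 ± 0.08 at 30 µg/kg (0.0241). Both calls were lost without the 4 libraries, at -0.25 ± 0.09 and -0.15 ± 0.10 (edgeR adjusted p = 0.0969 and 0.369). The call at 10 µg/kg held in 1 of 10 fits that left out 1 library, the one without vehicle replicate 4 (-0.27 to -0.21 over the 10). The call at 30 µg/kg was lost without vehicle replicate 5 or replicate 2 or 3 (-0.30 to -0.20). In the trend Scnn1b and Scnn1g each fell by 0.04 ± 0.01 per dose step on the log2 scale (edgeR adjusted p = 0.000419 and 0.000615). The alpha subunit Scnn1a was called in the trend and at no single dose, at -0.03 ± 0.01 per step (edgeR adjusted p = 0.0201), and its log2 change at 30 µg/kg was -0.11 ± 0.08 (adjusted p = 0.374). Its trend call was lost with the medulla score as a term (edgeR adjusted p = 0.0663), with the stranded column or without replicate 2 at 30 µg/kg (adjusted p = 0.0542). Scnn1a was called lower at 10 µg/kg too without the 4 libraries, at -0.26 ± 0.07 (edgeR adjusted p = 0.0332). For the within-library ratios of Scnn1b and Scnn1g to Scnn1a, at most 3 of 5 libraries lay below all vehicle libraries at any dose. Their lowest exact two-sided permutation p was 0.0873 (adjusted over 35 tests of 5 gene pairs 0.417). The Pvalb to Slc12a3 ratio at 30 µg/kg, without any overlap, had an exact two-sided permutation p of 0.00794 (adjusted 0.0926). That is the smallest p these tests can give, so no ratio could pass. The adjusted values therefore do not separate changed ratios from unchanged ones.

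**Figure D4:**
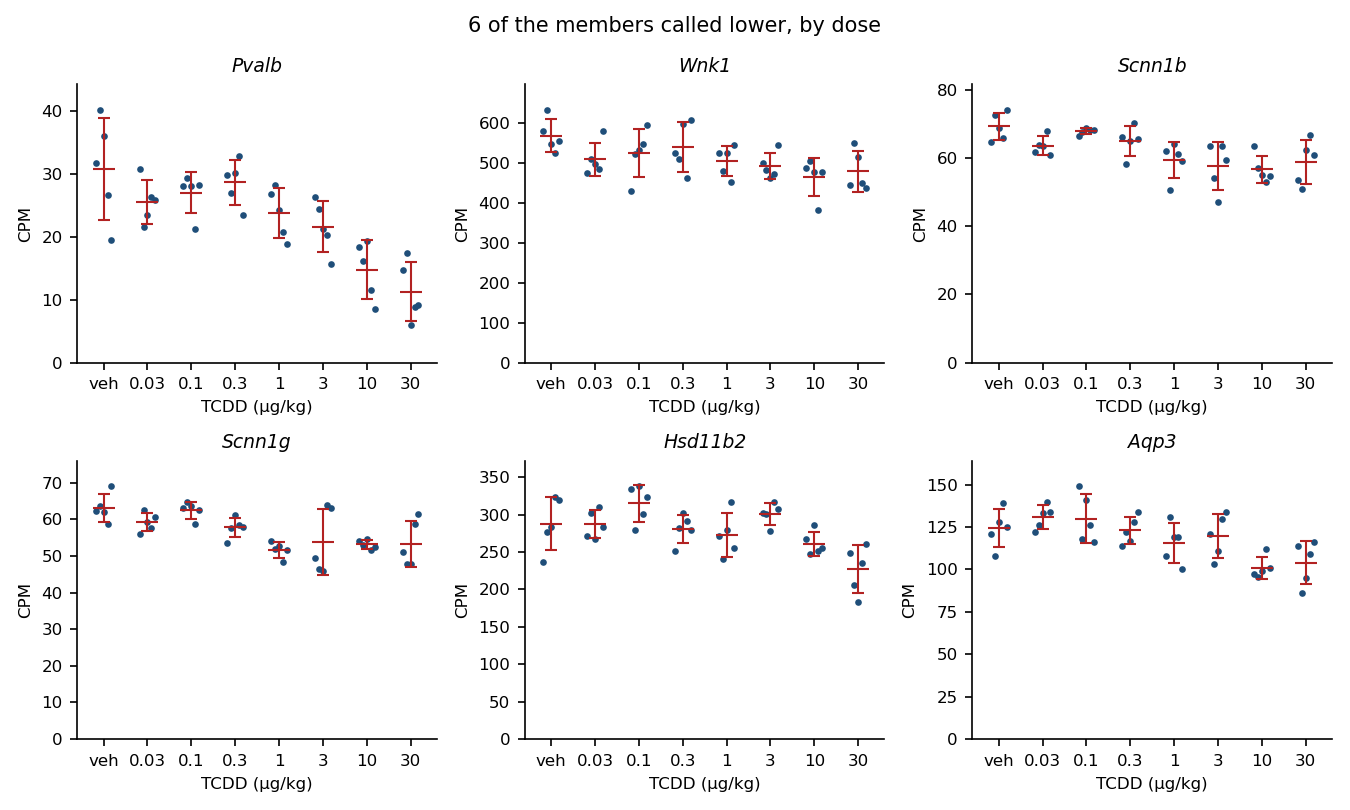
CPM by dose for 6 of the genes called lower, with 1 point per library and red bars for mean and SD (n = 5); veh is vehicle. Pvalb falls from 30.8 in vehicle to 14.8 and 11.3 CPM at 10 and 30 µg/kg, and the other 5 genes lie within a narrower range.

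Hsd11b2 was lower at 30 µg/kg. It was at 237, 277, 283, 323 and 320 CPM in vehicle, at 267, 247, 286, 251 and 255 CPM at 10 µg/kg and at 249, 206, 183, 236 and 261 CPM at 30 µg/kg. In 3 of 5 libraries at 30 µg/kg the level lay below vehicle, and the log2 change was -0.34 ± 0.08 (edgeR adjusted p = 0.00221), or -0.31 ± 0.09 without the 4 libraries (adjusted p = 0.0107). The call held in 10 of 10 fits that left out 1 library. In the trend Hsd11b2 fell by 0.04 ± 0.01 per dose step on the log2 scale (edgeR adjusted p = 0.00686). That trend was not called without the 30 µg/kg group (edgeR adjusted p = 0.4). Nr3c2 and Nedd4l, the ubiquitin ligase that removes ENaC from the membrane, had log2 changes of -0.07 ± 0.13 and 0.03 ± 0.08 at 30 µg/kg (edgeR adjusted p = 0.774 and 0.870).

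Sgk1, the kinase induced by aldosterone and glucocorticoids that holds Nedd4l in check, was called higher at 30 µg/kg, with uneven libraries. It was at 147, 136, 129, 116 and 125 CPM in vehicle and at 99.4, 159, 460, 193 and 285 CPM at 30 µg/kg, so 4 of 5 libraries were above all vehicle libraries and replicate 1 was below them. The log2 change was 0.87 ± 0.30 (edgeR adjusted p = 0.0398). It was 0.64 ± 0.35 without the 4 libraries (adjusted p = 0.272), and leaving out 1 library at a time gave 0.49 to 1.07, with the call held in 3 of 10 such fits. It was lost without any 1 vehicle library or replicate 3 or 5 at 30 µg/kg. Values at 10 µg/kg were 121, 204, 90.1, 133 and 215 CPM, below and above vehicle. Single high values occurred at low doses too, as in replicate 2 at 1 µg/kg, at 200 CPM against 87.9 to 116 CPM in the others.

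Other genes that respond to these steroids gave mixed results at 30 µg/kg. Per1, a clock gene induced by aldosterone and glucocorticoids, was at 15.5, 32.7, 88.9, 61.9 and 83.3 CPM against 16.8 to 31.6 CPM in vehicle, with a log2 change of 1.26 ± 0.41 (edgeR adjusted p = 0.0332). Zbtb16, a glucocorticoid-induced transcription factor, was at 4.89, 5.15, 57.6, 25.0 and 10.3 CPM against 3.41 to 11.0 CPM (log2 change 1.82 ± 0.63, edgeR adjusted p = 0.0467). Replicate 1 was lowest and replicate 3, 1 of the 4 libraries of low medulla score, highest for Sgk1, Per1 and Zbtb16 alike. Without the 4 libraries the log2 change was 1.28 ± 0.54 for Per1 and 1.62 ± 0.75 for Zbtb16, and neither was called (edgeR adjusted p = 0.134 and 0.18). Without replicate 3 alone they were 1.04 ± 0.43 and 0.96 ± 0.60 (edgeR adjusted p = 0.108 and 0.331), and each call held in 4 of 10 fits that left out 1 library. Fkbp5 and Tsc22d3, which the same receptors induce, were not called (edgeR adjusted p = 0.585 and 0.254), at 103 ± 66.3 against 86.0 ± 22.2 CPM and at 70.6 ± 23.6 against 53.2 ± 6.10 CPM in vehicle (SD, n = 5).

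**Figure D5:**
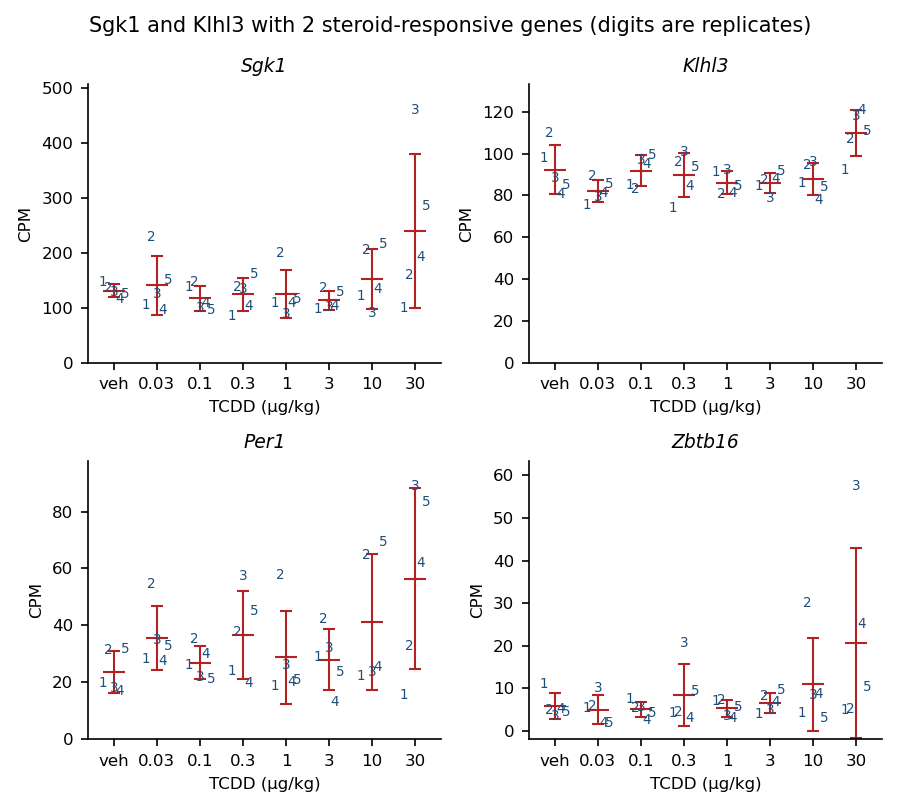
CPM by dose for the 2 genes called higher at 30 µg/kg, Sgk1 and Klhl3, and for the steroid-responsive genes Per1 and Zbtb16; digits are replicate numbers, veh is vehicle and red bars are mean and SD (n = 5). At 30 µg/kg replicate 3 is high and replicate 1 low for Sgk1 (460 and 99.4), Per1 and Zbtb16.

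Of the 5 principal cell genes tested, Aqp3 was called at 10 and 30 µg/kg and in the trend. It was at 121, 108, 128, 139 and 125 CPM in vehicle, at 97.5, 95.6, 98.8, 112 and 101 CPM at 10 µg/kg and at 114, 86.1, 95.1, 109 and 116 CPM at 30 µg/kg. Of 5 libraries, 4 at 10 µg/kg and 2 at 30 µg/kg lay below vehicle, with log2 changes of -0.30 ± 0.08 (edgeR adjusted p = 0.0224) and -0.25 ± 0.08 (adjusted p = 0.0279). Without the 4 libraries they were -0.38 ± 0.08 (adjusted p = 0.00379) and -0.21 ± 0.10 (adjusted p = 0.155). Leaving out 1 library gave -0.35 to -0.26 at 10 µg/kg, with the call lost without vehicle replicate 3 or 4 or replicate 1 or 2, and -0.30 to -0.19 at 30 µg/kg, lost without vehicle replicate 3 or 4 or replicate 2 or 3. Its trend, -0.05 ± 0.01 per dose step (edgeR adjusted p = 0.000164), held in 40 of 40 such fits. The medulla score ran from -3.97 to -3.65 at 10 µg/kg and from -4.68 to -3.17 in vehicle. With the score as a term Aqp3 stayed called at both doses, at -0.31 ± 0.07 and -0.21 ± 0.07 (edgeR adjusted p = 0.00155 and 0.0255).

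Aqp2 was not called at any dose. It was at 495, 338, 544, 553 and 564 CPM in vehicle and at 602, 237, 226, 538 and 564 CPM at 30 µg/kg, where the 2 low values are the libraries of low score. Its log2 change of -0.20 ± 0.21 (edgeR adjusted p = 0.595) became 0.04 ± 0.18 without the 4 libraries. Aqp4, a basolateral water channel, and Fxyd4, a regulator of the sodium pump in these cells, showed the same pair of low libraries at 30 µg/kg, with 33.0 and 12.5 CPM for Aqp4 and 23.7 and 17.2 CPM for Fxyd4. Their log2 changes were -0.24 ± 0.31 and -0.40 ± 0.17 (edgeR adjusted p = 0.683 and 0.116). Tfcp2l1, a transcription factor of collecting duct cells, was at 376 to 413 CPM in vehicle and at 360, 371, 570, 528 and 370 CPM at 30 µg/kg (log2 change 0.15 ± 0.09, edgeR adjusted p = 0.313).

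Of 45 further genes of the same segments, 44 were tested and 16 were called at 30 µg/kg, 12 higher and 4 lower (8.39% and 7.55% of all genes), with a median log2 change of 0.08. Of these 16, 10 were still called without the 4 libraries of low medulla score, and Per1, Zbtb16, Adcy3, Cldn8, Pcbd1 and Tmem52b were not. In the list of distal convoluted and connecting tubule genes 4 of 12 tested were lower and 1 higher. Calb1, the intracellular calcium carrier calbindin, was at 535, 602, 650, 547 and 494 CPM in vehicle. At 30 µg/kg it was at 409, 435, 354, 392 and 365 CPM, with every library below vehicle (2.83% of all genes). Its log2 change was -0.53 ± 0.08 (edgeR adjusted p = 2.61e-06). The sodium-calcium exchanger Slc8a1 went from 227 to 282 CPM in vehicle to 130 to 202 CPM at 30 µg/kg (log2 change -0.67 ± 0.11, edgeR adjusted p = 2.69e-05), and was also called at 3 and 10 µg/kg. Slc41a3, a magnesium transporter, was higher at 30 µg/kg, by a log2 change of 0.62 ± 0.21 (edgeR adjusted p = 0.0376), a call that held in 4 of 10 fits that left out 1 library.

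Of 9 aldosterone targets and ENaC proteases 3 were higher and none lower at 30 µg/kg, Per1 and Zbtb16 among them. The third, Tmprss4, a serine protease able to cleave ENaC, was at 0.864, 0.405, 0.389, 0.131 and 0.170 CPM in vehicle, at 3.02 to 3.78 CPM at 10 µg/kg and at 3.64 to 5.36 CPM at 30 µg/kg. Its log2 changes were 3.04 ± 0.45 and 3.46 ± 0.45 (edgeR adjusted p = 4.2e-06 and 2.58e-07), at low absolute levels, and 15.9% of its exonic bases lie in another gene. Of 7 vasopressin and cAMP genes 2 were higher, the phosphodiesterase Pde4d by a log2 change of 0.66 ± 0.14 (edgeR adjusted p = 0.000643) and the adenylate cyclase Adcy3 by 0.83 ± 0.28 (edgeR adjusted p = 0.0375), the latter sharing 22.1% of its exonic bases with Cenpo and called in 3 of 10 fits that left out 1 library. Of 8 collecting duct genes 5 were higher and none lower, Gata3, Cldn4 and Cldn8 among them, with larger log2 differences for the potassium channel Kcnma1 (log2 change 1.72 ± 0.36, edgeR adjusted p = 0.000565) and the keratin Krt18 (0.69 ± 0.14, edgeR adjusted p = 0.000396). The call of Cldn4 held in 3 and that of Cldn8 in 7 of 10 fits that left out 1 library. Markers of urothelium were higher at the same dose, with 4 of 5 called higher (8.39% of all genes). Their summed level was 63.9 to 136 CPM against 22.7 to 54.4 CPM in vehicle (exact two-sided permutation p = 0.00794, adjusted 0.0509). At this dose 3.59% of all genes had every library above vehicle. The part of urothelium in the collecting duct genes was not tested. Of 8 thick limb genes 1 was higher, Nos1, the macula densa nitric oxide synthase, at 1.13 to 4.58 CPM against 1.01 to 1.53 CPM (log2 change 1.26 ± 0.33, edgeR adjusted p = 0.00542). Ptgs2, which makes prostaglandins at the macula densa, was called higher in the trend, at 0.15 ± 0.05 per dose step on the log2 scale (edgeR adjusted p = 0.0303).

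Markers of other cells moved at the same doses. The summed CPM of 8 macrophage markers was 86.2 to 144 in vehicle, 203 to 251 at 10 µg/kg and 179 to 240 at 30 µg/kg, with 7 of 8 markers called higher at each (3.82% and 8.39% of all genes). Sums of 7 endothelial markers (555 to 695 in vehicle, 761 to 827 and 750 to 891) and 6 podocyte markers (276 to 395, 426 to 566 and 395 to 560) did not overlap with vehicle at either dose (4.32% and 3.59% of all genes had every library above vehicle), each with an exact two-sided permutation p of 0.00794, adjusted over 77 tests 0.0509. Of 7 proximal S3 markers 5 were called lower at 30 µg/kg (7.55% of all genes), where their sum ran from 755 to 3972 against 2985 to 5861 in vehicle. Intercalated cell markers, the neighbours of principal cells, summed to 560 to 637 in vehicle and to 489 to 711 at 30 µg/kg, and to 499 to 552 at 10 µg/kg, below all vehicle libraries (1.82% of all genes), with 3 of 8 markers called lower (0.997% of all genes). At 30 µg/kg 2 of the 8 were called higher and 2 lower (8.39% and 7.55% of all genes). In none of these lists was a marker at 0 in all libraries of a group. Fibroblast markers summed to 283 to 407 in vehicle, 432 to 510 at 10 µg/kg and 320 to 591 at 30 µg/kg, urothelial markers at 10 µg/kg to 37.8 to 67.7, and fat markers to 32.3 to 90.2, 23.7 to 185 and 104 to 249 in that order. Of the 5 fat markers, 1 was called higher and 1 lower at 30 µg/kg, so they did not move together. T cell markers were low throughout, at 4.56 to 8.22 in vehicle and 3.53 to 7.24 at 30 µg/kg. The smallest p that 5 against 5 libraries can give in these tests is 0.00794, which the adjustment over 77 tests turned into 0.0509. A sum without any overlap could therefore not pass, and the adjusted values do not separate such sums from unchanged ones. The part of these cells in the differences of the 35 genes was not tested.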

How the data were processed

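RNA-seq gene counts of 40 kidney libraries (8 groups of 5) were used as deposited by the authors, from the unstranded column of STAR gene count files. The submitters' processing notes name FastQC 0.11.7, Trimmomatic 0.39, STAR 2.7.3a and DESeq2, and the builds GRCm39 and mm10 without their roles, and the files hold no coordinates. Reads not assigned to a gene (21.2 to 23.9% of a library) stayed out. The stranded column used as an alternative held 50.4 to 51.0% of the counts of both stranded columns together. It therefore leaves out the counts of the other strand column. Of 55359 identifiers, 52083 were named with a GENCODE table, and the others held 0.663% of counts. Gene counts per library limit precision through counting error only.

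Genes were filtered with filterByExpr, scaled by TMM (factors 0.966 to 1.09) and fitted with edgeR 4.0.16 (R 4.3.3) by the robust quasi-likelihood test on all 40 libraries with 8 groups and no covariate. Each dose was set against vehicle and a slope was fitted over dose rank. P-values were adjusted by Benjamini-Hochberg over all 17345 genes and called under 0.05. SE is the log2 fold change over the square root of F. CPM values use TMM-scaled totals. On simulated data for 30 µg/kg (17028 genes), 7.5%, 43.3% and 69.7% of genes changed by a log2 of 0.25, 0.5 and 1 were called. Only 67, 67 and 66 genes were changed by these sizes, and each gene had the same spread in all groups. In the real comparison 1456 genes were called higher and 1310 lower, which loosens the adjusted threshold. These shares are therefore not detection rates of the real comparison. Marker sums and ratios were compared by exact two-sided permutation tests (scipy 1.17.1). Replicate numbers follow accession order and pair nothing.

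The members, marker lists and further lists were chosen with earlier results of these data known. Every gene of the set is accounted for, those called are named with values, and further genes are named where called at 30 µg/kg or in the trend with an absolute log2 fold change of at least 0.5 at 30 µg/kg, while Fkbp5 and Tsc22d3 and the remaining collecting duct genes were named after their values were seen. Marker lists covered medulla and thin limb, proximal S1-S2 and S3, intercalated cell, podocyte, endothelium, macrophage, T cell, fibroblast, urothelium and fat. Alternatives were RLE size factors, no filter, DESeq2 1.42.0, the stranded column with more counts, the run of title numbers or the medulla score as a term, each library left out, only the 10 libraries compared, the trend without 30 µg/kg and, chosen after seeing the data, leaving out the 4 libraries of low medulla score and running these alternatives on the further genes called at 30 µg/kg.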

Additional observations from a re-analysis of the deposited data

Results flagged for a closer look

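In 7 of 264 groups of 5 libraries examined, 1 library lay far from the other 4 by Dixon's test, where chance gives about 1 in 20 groups. Slc12a3 had such a low value in replicate 1 of the 0.1 µg/kg group, 1121 CPM with the next library at 1400, and in replicate 4 of the 1 µg/kg group, 1104 CPM with the next at 1300. The lowest Pvalb level of the 0.1 µg/kg group was 21.2 CPM in replicate 4, below 28.1 in the next. Trpm6 reached only 17.7 CPM in replicate 1 of the 30 µg/kg group, below 27.8. For Wnk1 replicate 4 of the 10 µg/kg group gave 383 CPM, below 476, and for Wnk4 replicate 5 of the 1 µg/kg group gave 234 CPM, below 263. Sgk1 was the 1 gene with a high value, 200 CPM in replicate 2 of the 1 µg/kg group, above 116.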

How the results depend on the processing

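No paired analysis was possible because the replicate numbers follow accession order and the labels give none. The calls among the 33 genes at 1 µg/kg (0) became 1 with the medulla score as a term and 1 by DESeq2, and at 3 µg/kg (0) 1 by DESeq2. At 10 µg/kg (6) they became 2 with the stranded column. At 30 µg/kg (9) they became 4 with no filter on low counts, 4 without the 4 libraries of low medulla score and 1 (Pvalb) with only the 10 libraries compared. Over all genes, the stranded column took calls at 10 µg/kg from 663 higher and 173 lower to 505 and 114. That column held 50.4 to 51.0% of the counts of both stranded columns together. At 30 µg/kg, calls over all genes went from 1456 higher and 1310 lower to 1223 and 1058 with no filter. They went to 1068 and 1130 without the 4 libraries, and to 631 and 338 with only the 10 libraries. Among the 33 genes, leaving out 1 library gave 0 to 0 calls at 0.03, 0.1, 0.3 and 1 µg/kg and 0 to 2 at 3 µg/kg. It gave 2 to 5 at 10 µg/kg, 4 to 10 at 30 µg/kg and 9 to 13 in the trend. Pvalb was called in every fit run at 10 and 30 µg/kg. By gene, calls were lost with the stranded column for Slc12a3, Scnn1b, Scnn1g and Aqp3 at 10 µg/kg, Scnn1g at 30 µg/kg and Scnn1a and Scnn1g in the trend, with no filter for Slc12a3 and Scnn1g at 10 µg/kg and Cnnm2, Klhl3, Scnn1b, Scnn1g and Sgk1 at 30 µg/kg, with the score as a term for Sgk1 at 30 µg/kg and Wnk4 and Scnn1a in the trend, with only the 10 libraries for Slc12a3 at 10 µg/kg, and without the 30 µg/kg group for Egf, Wnk4 and Hsd11b2 in the trend. Of 594 alternative values of single genes at 30 µg/kg, 500 kept direction and side of the threshold, 56 lost the call, 11 gained one and 27 changed sign. The last were of genes not called: Umod 0.12 with the score as a term, Cldn16 -0.01 and Tmem207 -0.07 with the stranded column, and Tmem207 -0.21, Nr3c2 0.05, Nedd4l -0.02 and Aqp2 0.04 without the 4 libraries. Over the 10 fits that left out 1 library the sign also changed for Umod (-0.19 to 0.19), Cldn10 (-0.02 to 0.08), Tmem207 (-0.16 to 0.31), Stk39 (-0.05 to 0.13), Kcnj10 (-0.01 to 0.06), Kcnj16 (-0.20 to 0.08) and Nedd4l (-0.02 to 0.07). The cause of these changes was not tested. Depth limits the lowest genes, Cldn14 and Avpr2, which were not tested.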
